A study of Mus musculus with 40 samples.

Results

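The 7 heart and muscle miRNAs mmu-miR-1a-3p, mmu-miR-133a-3p, mmu-miR-133b-3p, mmu-miR-206-3p, mmu-miR-208a-3p, mmu-miR-208b-3p and mmu-miR-499-5p (written without mmu, for mouse, from here on) were followed in small RNA libraries of the hippocampal CA1 region. They were chosen by name, as the miRNAs known best from heart and skeletal muscle, with earlier results of these data known. They make up 7 of the 1978 mature miRNAs in the count table. The 40 libraries, 1 per mouse, came from mice overexpressing the kinase CaMKIIδC (TG), a genetic model of heart failure, and from wild-type littermates, all on a C57Bl/6J background. At 3 months of age there were 5 wild-type control and 9 TG mice, and at 6 months 15 wild-type control and 11 TG mice. The paper that reported the data states other numbers of TG mice at both ages for its small RNA comparison. Both male and female mice were used. The promoter that drives the transgene is not given in the sources used here, and the genotype field of 3-month wild-type mice 1 and 2 reads TG while their titles read wild type; the titles were followed. No label says that libraries shared a mouse, and p-values measure the spread between these libraries.

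In heart and skeletal muscle these miRNAs are known as myomiRs. miR-1 and miR-133 are made from shared primary transcripts and act in muscle differentiation, growth and excitability. miR-206 is mainly a skeletal muscle miRNA of the miR-1 family, and miR-133b is its neighbor in the genome. miR-208a, miR-208b and miR-499 lie inside myosin heavy chain genes and take part in the choice of myosin isoform in the stressed heart. miR-208a is close to specific for cardiac muscle cells. In the brain, miR-133b and miR-206 have been studied in neurons, but none of the group is a typical neuronal miRNA.

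Mature sequences of 5 of the 7 miRNAs were matched in RefSeq (GRCm38). They are shown because shared seeds, bases 2 to 8 and in capitals here, decide which targets a miRNA can pair with and which miRNAs form a family.
miR-133b-3p: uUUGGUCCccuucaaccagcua
miR-206-3p: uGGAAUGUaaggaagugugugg
miR-208a-3p: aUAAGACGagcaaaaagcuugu
miR-208b-3p: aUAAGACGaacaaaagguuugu
miR-499-5p: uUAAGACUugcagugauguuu
miR-208a-3p and miR-208b-3p had the same seed and differed at 3 of 22 positions. Their seed shared 6 of 7 positions with that of miR-499-5p. miR-206-3p (chr1:20679055-20679076, plus strand) and miR-133b-3p (chr1:20682834-20682855, plus strand) came from hairpins 3686 bases apart, both overlapping exons of the long noncoding RNA gene Gm28653. miR-208a-3p (chr14:54949072-54949093, minus strand) lay in an intron of Myh6, the gene of the alpha cardiac myosin heavy chain. miR-208b-3p (chr14:54975710-54975731, minus strand) lay in an intron of Myh7, the gene of the beta heavy chain, with 26557 bases between the hairpins. miR-499-5p (chr2:155622893-155622913, plus strand) lay in an intron of Myh7b.

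Total counts ranged from 2656368 to 36547011 per library, so that 3 counts corresponded to between 0.0956 and 2.32 CPM (counts per 1000000, normalized by TMM over the 40 libraries). A set of 5 miRNAs typical of neurons, miR-124-3p among them, summed to group medians between 199804 and 291446 CPM; no miRNA marker separates CA1 from the rest of the hippocampus here. The libraries also held synthetic spike-in oligos, and the first principal component of the composition of 43 of these, called the spike-in axis here, held 74.7% of their variance. It split the libraries into 18 below 0, with total counts from 2656368 to 25145705, and 22 above 0, with total counts from 11071187 to 36547011. Of the TG mice, 4 of the 9 and 6 of the 11 TG mice of 6 months lay below 0, as did 1 of 5 and 7 of 15 wild-type controls. The axis was not particular to the 7 miRNAs. On deviations from the group means, the first principal component of 351 other miRNAs held 70.1% of their variance. That component correlated with the spike-in axis at r = 0.98. Because levels across the table, several of the 7 among them, moved with this axis, comparisons are given within its sides too. This split was made after the data were examined.

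miR-1a-3p was by far the most abundant of the 7. Its median over all libraries was 578 CPM, rank 100 of 1978. miR-499-5p followed at 9.49 CPM (rank 357), then miR-133a-3p at 8.36 CPM (rank 372), miR-206-3p at 7.65 CPM (rank 384) and miR-133b-3p at 1.37 CPM (rank 554). The ranges of miR-499-5p, miR-133a-3p and miR-206-3p overlapped widely, so these neighbors in the order did not differ beyond their spread. miR-1a-3p is encoded by mir-1a-1 and mir-1a-2, whose counts differed by at most 6 reads in any library, and miR-133a-3p by mir-133a-1 and mir-133a-2, whose counts were identical, so neither could be assigned to a locus. The mature forms of miR-133a-3p and miR-133b-3p are nearly identical, and their counts are uncertain as far as reads were shared.

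**Figure D1:**
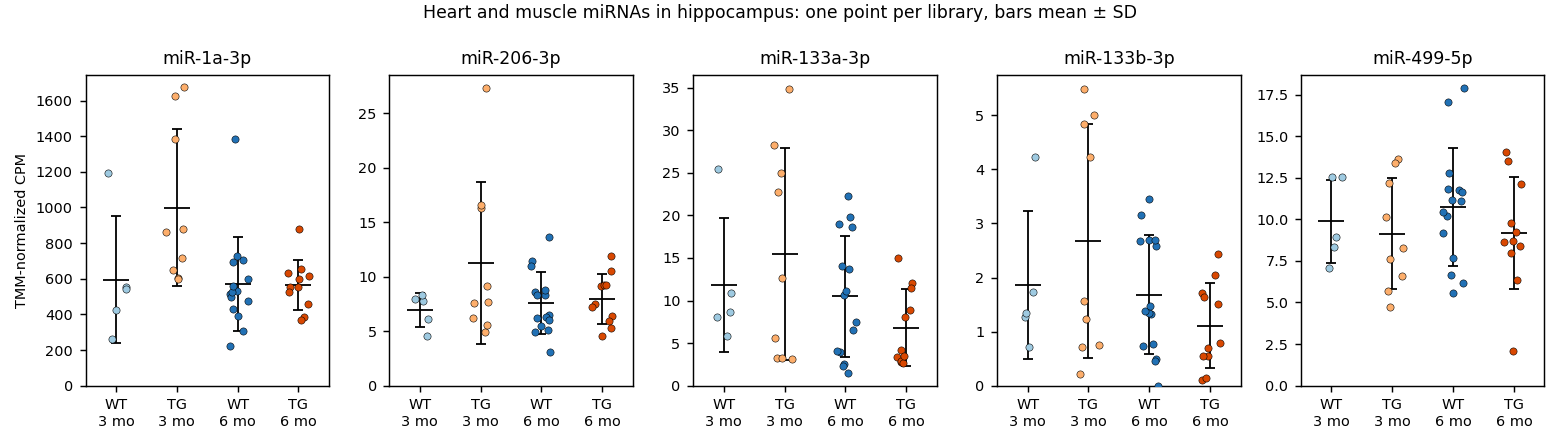
Level of the 5 detected miRNAs in each group. Each point is 1 library in TMM-normalized CPM, on a linear axis from 0 with its own scale per miRNA, and bars give mean and SD (n = 5, 9, 15 and 11). For miR-1a-3p, 4 of the 9 TG mice of 3 months lie above all 11 TG mice of 6 months.

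The cardiac miRNAs miR-208a-3p and miR-208b-3p were at or near 0. miR-208a-3p had 1 read in 1 of 40 libraries, in TG mouse 9 of 3 months. miR-208b-3p had 13 reads in 6 libraries: 2 wild-type controls and 2 TG mice of 3 months, and 2 wild-type controls of 6 months. Its highest count was 5 reads, in wild-type mouse 6 of 6 months. In the 11 TG mice of 6 months neither had a read, and 3 counts over that group corresponded to 0.0275 CPM. Neither passed the low-count filter, so 5 of the 7 miRNAs were tested. Intervals and floors of this kind cover counting error only.

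The opposite arms of the hairpins were rare as well. miR-133a-5p had 129 reads in 26 libraries, and miR-208a-5p had 8 reads in 7 libraries. miR-1a-1-5p had 2 reads and miR-499-3p 1 read, while miR-1a-2-5p, miR-133b-5p, miR-206-5p and miR-208b-5p had none. The related miR-1b-3p had 137 reads in 30 libraries and miR-1b-5p 25 reads in 14. None of these 10 was tested.

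Whether the miRNAs changed between 3 and 6 months in TG mice was the comparison with the most calls. An miRNA was called at an adjusted p under 0.05 and an absolute log2 fold change (log2FC) above 0.26, in edgeR's quasi-likelihood test over all miRNAs. Of 629 miRNAs tested 99 were called, a background of 15.7%, with 47 higher and 52 lower at 6 months. Of the 5 tested heart and muscle miRNAs 1 was called, miR-1a-3p, which fell. The paper that reported the data had already listed miR-1a-3p among the miRNAs lower at 6 months in TG mice. The call here comes from the same libraries and is not independent of that. The median log2FC of the 5 was -0.80, which is the value of miR-1a-3p itself, beside -0.09 over all miRNAs tested. They ranged from -1.20 to 0.04 and are not replicates of each other. Whether they moved as a group was not tested.

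In TG mice 1 to 9 of 3 months, miR-1a-3p stood at 1383, 1674, 1628, 603, 862, 718, 599, 647 and 878 CPM. In the 11 TG mice of 6 months its lowest, median and highest levels were 366, 554 and 877 CPM. All 11 lay below the 3-month mean and 7 lay below the lowest 3-month mouse, while the ranges overlapped. Group means were 999 ± 440 CPM (SD, n = 9) in the younger and 565 ± 140 CPM (SD, n = 11) in the older TG mice. This gave a log2FC of -0.80 (standard error, SE, 0.21, edgeR adjusted p = 0.0136).

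TG mice 1, 2 and 3 of 3 months had 3 of the 4 highest miR-1a-3p levels of all 40 libraries, the other being 1385 CPM in wild-type mouse 4 of 6 months, and they lay below 0 on the spike-in axis. Without these 3 mice, a choice made after their values were seen, the log2FC was -0.33 with an adjusted p of 0.106 in edgeR, and the call was lost. Leaving out any single 3-month TG mouse kept it, with log2FC between -0.87 and -0.67. Within the libraries below 0 on the spike-in axis the log2FC was -0.94 (adjusted p = 0.0198, edgeR, 4 mice of 3 months and 6 of 6 months), where 43 of 575 miRNAs were called, a background of 7.48%. Within those above 0, which hold none of the 3 mice, it was -0.67 (adjusted p = 0.00279, edgeR, 5 mice of each age), where 292 of 693 miRNAs were called, a background of 42.1%. Above 0 levels ran from 599 to 878 CPM at 3 months and from 366 to 554 CPM at 6 months. How many of all 693 miRNAs had separate ranges there was not counted. Below 0 the ages overlapped. In both sides miR-1a-3p was called lower at 6 months.

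miR-133a-3p was spread widely in TG mice of 3 months. Mice 1 to 9 had 5.62, 3.17, 3.20, 12.7, 25.0, 34.9, 22.8, 3.29 and 28.3 CPM. The 4 mice with under 6 CPM, numbers 1, 2, 3 and 8, were the 4 below 0 on the spike-in axis, and the other 5 were above it. At 6 months the lowest, median and highest levels were 2.71, 4.21 and 15.1 CPM, and all 11 mice lay below the 3-month mean. The log2FC was -1.14 (SE 0.47, edgeR adjusted p = 0.0958), which did not pass the threshold. Within the libraries above 0 it was -1.14 with an adjusted p of 0.000458, from a median of 25.0 CPM to 11.5 CPM, and the 5 mice of each age overlapped. Within those below 0 it was -0.19 with an adjusted p of 0.700, from a median of 3.24 CPM to 3.09 CPM. Whether the sides differ in this change was not tested.

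miR-133b-3p followed the same course at lower counts, with a log2FC of -1.20 (SE 0.49, edgeR adjusted p = 0.0990). Its 3-month TG mice ranged from 0.219 to 5.48 CPM and its 6-month TG mice from 0.113 to 2.43 CPM. Within the libraries above 0 on the spike-in axis it was called, with a log2FC of -1.16 (adjusted p = 0.00249, edgeR), and among those below 0 it did not pass the low-count filter. Over summed counts it made up 16.6% of miR-133a-3p, with 17.1% in TG mice of 3 months as the highest of the 4 groups.

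miR-206-3p had 16.4, 16.6 and 27.4 CPM in TG mice 1, 2 and 3 of 3 months and between 4.91 and 9.20 CPM in the other 6. At 6 months its range in TG mice was 4.57 to 11.9 CPM. The log2FC was -0.49 (SE 0.29, edgeR adjusted p = 0.235), and without those 3 mice it was 0.20. Within the libraries below 0 on the spike-in axis, which hold the 3 mice, miR-206-3p was called, with a log2FC of -0.98 (adjusted p = 0.0485, edgeR). Within those above 0 its log2FC was 0.14 (adjusted p = 0.609, edgeR), and with the axis as a covariate over all TG mice it was -0.54 (adjusted p = 0.0326, edgeR). Whether the sides differ was not tested. miR-499-5p differed little, with medians of 8.29 and 8.67 CPM and a log2FC of 0.04 (SE 0.25, edgeR adjusted p = 0.937).

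**Figure D2:**
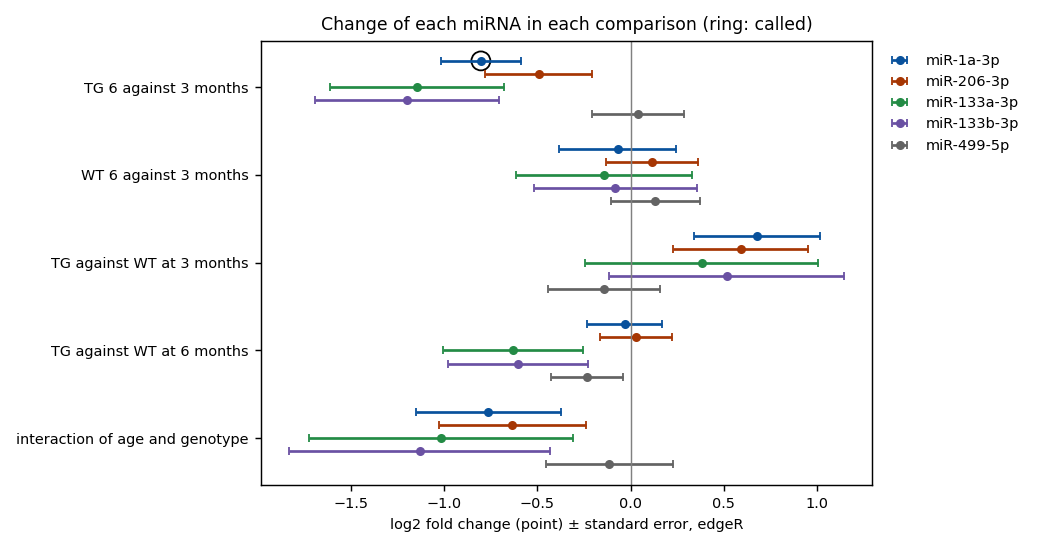
Log2 fold change of the 5 tested miRNAs in each comparison, with standard errors from edgeR. Points left of 0 are lower in the first-named group, the last rows give the difference of the age changes (TG minus wild type), and the ring marks the 1 call, miR-1a-3p between 6 and 3 months in TG mice.

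The same ages were compared in wild-type control mice to see the change without the transgene. Of 660 miRNAs 1 was called, a background of 0.152%, and 102 (15.5%) had an unadjusted p under 0.05. DESeq2 called 23 of the 660, and 195 and 212 with 1 and 2 factors of unwanted variation. The replicate number as a block in edgeR gave 245 of 597. That fit kept only replicate numbers found at both ages, here mice 1 to 5. All of these of 6 months lay below 0 on the spike-in axis, while mice 2 to 5 of 3 months lay above 0. Age and position on the axis could therefore hardly be told apart in it. None of the 5 heart and muscle miRNAs was called in the main test, and none had an unadjusted p under 0.05 there. With the block miR-133a-3p and miR-133b-3p were called lower. Among the libraries above 0 on the axis their log2FC were 0.21 and 0.16, and with the axis as a covariate 0.37 and 0.35, none called. Wild-type mice 1 to 5 of 3 months had 423, 557, 1194, 543 and 261 CPM of miR-1a-3p, and the 15 mice of 6 months had a lowest, median and highest of 221, 525 and 1385 CPM. The ranges overlapped almost fully, with a log2FC of -0.07 (SE 0.31, edgeR adjusted p = 0.927). Among the libraries above 0 on the spike-in axis the log2FC of miR-1a-3p was -0.50 (adjusted p = 0.384, edgeR, 4 mice of 3 months and 8 of 6 months). In TG mice on that side it was -0.67. With the axis as a covariate the wild-type log2FC was -0.30 (adjusted p = 0.659, edgeR). Below 0 there was 1 wild-type control of 3 months, so no comparison was made there. In the main test the log2FC were -0.14 for miR-133a-3p, -0.08 for miR-133b-3p, 0.12 for miR-206-3p and 0.13 for miR-499-5p, with standard errors between 0.24 and 0.47.

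The age change of TG mice was then compared with that of wild-type controls in one model. No miRNA of 699 was called (0%) in edgeR, 14 had an unadjusted p under 0.05, and DESeq2 called none. The difference of the log2FC for miR-1a-3p was -0.76 (SE 0.39, unadjusted p = 0.0573, adjusted p = 0.986, edgeR). For miR-133a-3p it was -1.02 (SE 0.71) and for miR-133b-3p -1.13 (SE 0.70). Without 3-month wild-type mouse 3 the difference for miR-1a-3p was -1.17, and without 3-month TG mice 1, 2 and 3 it was -0.29. Without 3-month wild-type mouse 2 the differences for miR-133a-3p and miR-133b-3p were -1.52 and -1.70, and none of these was called. The fall of miR-1a-3p in TG mice was therefore not shown to differ from the change in wild-type controls.

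TG and wild-type control mice were also compared at each age. At 3 months no miRNA of 695 was called (0%) in edgeR, 7 had an unadjusted p under 0.05, and DESeq2 called none. miR-1a-3p had a median of 543 CPM in 5 wild-type controls and 862 CPM in 9 TG mice, with a log2FC of 0.68 (SE 0.34, unadjusted p = 0.0622, adjusted p = 0.998, edgeR). All 9 TG mice lay above the wild-type mean of 595 CPM, but 6 of the 9 lay within the wild-type range, which reached 1194 CPM in mouse 3. The log2FC were 0.38 for miR-133a-3p, 0.52 for miR-133b-3p, 0.59 for miR-206-3p and -0.14 for miR-499-5p. Without wild-type mouse 2, whose genotype field reads TG, those of miR-133a-3p and miR-133b-3p were 0.93 and 1.14, and without mice 1 and 2 they were 0.78 and 0.95, none called. Without wild-type mouse 3 that of miR-1a-3p was 1.096, and without TG mice 1, 2 and 3 it was 0.27, neither called. Among the libraries above 0 on the spike-in axis the log2FC of miR-1a-3p was 0.25. Below 0 there was 1 wild-type control of this age, so no comparison could be made there.

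At 6 months no miRNA of 612 was called (0%) in edgeR, 3 had an unadjusted p under 0.05, and DESeq2 called none. miR-1a-3p had medians of 525 CPM in wild-type controls and 554 CPM in TG mice, a log2FC of -0.03 (SE 0.20, edgeR adjusted p = 0.992). miR-133a-3p had medians of 10.7 CPM in wild-type controls and 4.21 CPM in TG mice, a log2FC of -0.63 (SE 0.37, unadjusted p = 0.103, edgeR). The log2FC of miR-133a-3p was -0.64 within the libraries below 0 on the spike-in axis and -0.54 within those above 0, neither called. miR-133b-3p had a log2FC of -0.60, miR-206-3p 0.03 and miR-499-5p -0.23.

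**Figure D3:**
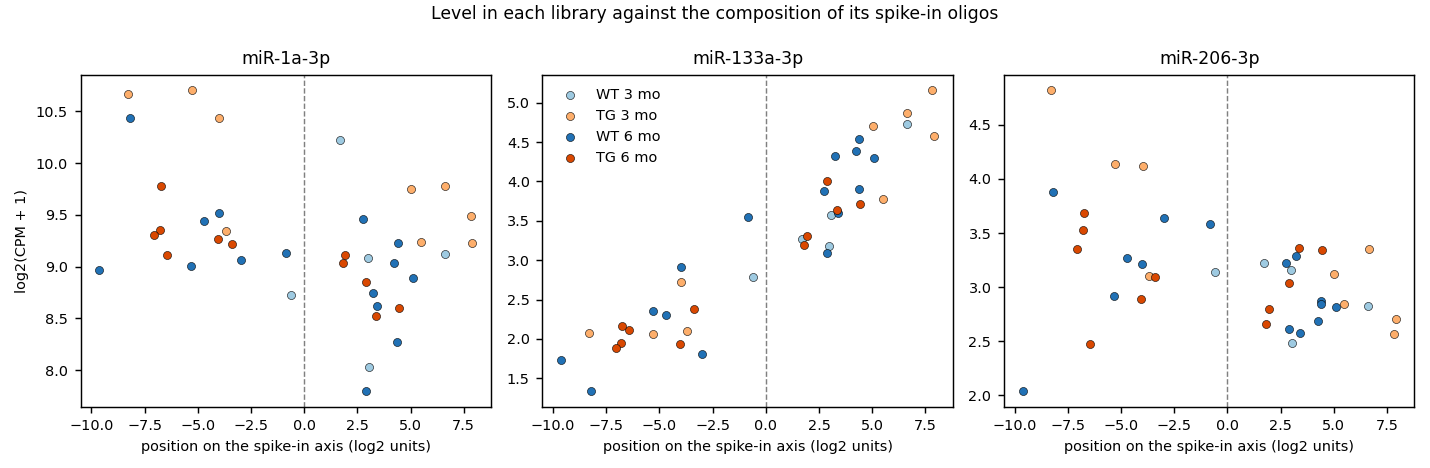
Level of miR-1a-3p, miR-133a-3p and miR-206-3p in each of the 40 libraries, as log2(CPM + 1), against position on the spike-in axis, where the dashed line marks 0. miR-133a-3p reaches 10.7 CPM below 0 and ranges from 7.50 to 34.9 CPM above 0, so that the sides overlap in a few libraries, and the 3 TG mice of 3 months with the highest miR-206-3p lie below 0.

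Within the sides of the spike-in axis the miRNAs were related to each other in 30 relations, on deviations of log2(CPM + 1) from the group means, with p-values from permutation within groups and adjusted over the 30. Below 0 they used 17 of the 18 libraries, since the 1 wild-type control of 3 months there had no other of its group. miR-133a-3p and miR-133b-3p moved together above 0 (r = 0.90, rho = 0.91, adjusted permutation p = 0.0006 for r and 0.0003 for rho, n = 22, r = 0.85 without the 2 farthest libraries). Below 0 their r was 0.69 and rho 0.67 (adjusted permutation p = 0.0397 for r and 0.0564 for rho, n = 17). miR-1a-3p and miR-206-3p had an r of 0.71 and a rho of 0.65 below 0 (adjusted permutation p = 0.0397 and 0.0564, n = 17) and an r of 0.43 and a rho of 0.29 above 0 (adjusted permutation p = 0.208 and 0.450, n = 22). miR-1a-3p and miR-499-5p had an r of -0.60 and a rho of -0.56 below 0 (adjusted permutation p = 0.0397 and 0.110, n = 17) and an r of -0.15 above 0 (adjusted permutation p = 0.686, n = 22). miR-206-3p and miR-499-5p moved oppositely above 0 (r = -0.78, rho = -0.75, adjusted permutation p = 0.0051 and 0.0066, n = 22), and their r below 0 was -0.31 (adjusted permutation p = 0.455). miR-133a-3p also rose with the spike-in axis within the side above 0 (r = 0.71, rho = 0.67, adjusted permutation p = 0.0254 and 0.0231, n = 22). For miR-133b-3p the r with the axis there was 0.63 and the rho 0.58 (adjusted permutation p = 0.0521 and 0.0564, n = 22). The r of 0.90 between miR-133a-3p and miR-133b-3p was not adjusted for the axis or for shared reads. miR-1a-3p and miR-133a-3p, made from shared transcripts, had r of -0.23 below 0 and 0.23 above 0, neither past the threshold.

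In single libraries miR-133b-3p made up between 0% and 33.3% of the miR-133a-3p count. Both ends came from wild-type mice 4 and 5 of 6 months, each with 3 reads of miR-133a-3p. miR-133a-3p made up 2.29% of the miR-1a-3p count over all libraries, and between 0.11% and 4.86% in single libraries. miR-206-3p made up 1.21% of the miR-1a-3p count, and between 0.62% and 2.54% in single libraries. Among 351 other miRNAs with a median of at least 10 CPM, those with levels most like miR-1a-3p over the 40 libraries were let-7j (Spearman rho 0.81), let-7i-5p (0.77) and miR-25-3p (0.77), as a description, since all levels share depth and library composition.

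A list of 14 miRNAs linked to stress and remodelling of the heart was set beside them. Of 13 tested between 3 and 6 months in TG mice, 1 rose and 2 fell, against the background of 15.7%, and the median log2FC was -0.18. miR-30d-5p rose (log2FC 0.55), and miR-23a-3p (log2FC -0.86) and miR-29b-3p, a repressor of collagen and other matrix genes, (log2FC -1.10) fell. In the other comparisons none of the 14 was called.

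Markers of other cell types were read in the same comparison, since fewer cells of a type and less RNA per cell cannot be told apart in bulk tissue. Between 3 and 6 months in TG mice 15.7% of all miRNAs tested were called. Both choroid plexus miRNAs rose, miR-204-5p by 0.89 and miR-211-5p by 1.07 on the log2 scale. Of 3 oligodendrocyte miRNAs 2 fell, miR-219a-2-3p (log2FC -0.57) and miR-338-3p (log2FC -1.02). The third, miR-219a-5p, was lower too but not called (log2FC -1.13, edgeR adjusted p = 0.0779). Of 5 erythroid miRNAs miR-451a rose (log2FC 0.68), and miR-144-3p (log2FC -0.98) and miR-486a-3p (log2FC -2.14) fell. miR-144-5p (log2FC -0.44) and miR-486a-5p (log2FC -0.02) were not called. Of 5 vascular miRNAs 1 rose, miR-126a-3p of endothelial cells (log2FC 0.73), and the other 4, not called, had log2FC from -0.33 for miR-126a-5p to 0.28 for miR-143-3p, with a list median of 0.03. Of 5 neuronal miRNAs 1 rose, miR-128-3p (log2FC 0.73), and the other 4, not called, had log2FC of -0.66 for miR-124-3p, -0.17 for miR-9-5p, 0.12 for miR-138-5p and 0.32 for miR-132-3p. The summed choroid plexus level ranged from 290 to 749 CPM at 3 months and from 638 to 1023 CPM at 6 months in TG mice. The summed level ranged from 1193 to 2307 and from 743 to 1356 CPM for the oligodendrocyte list, from 452 to 1462 and from 650 to 1217 CPM for the erythroid list, from 9643 to 16969 and from 13277 to 21045 CPM for the vascular list, and from 166470 to 318713 and from 198563 to 364534 CPM for the neuronal list. In wild-type controls no listed marker was called between ages, where 0.152% of all tested were. The markers called in TG mice had the same sign there. Their log2FC were 0.50 for miR-204-5p, 0.41 for miR-211-5p, -0.23 for miR-219a-2-3p, -0.26 for miR-338-3p and 0.63 for miR-451a. Those of miR-144-3p, miR-486a-3p, miR-126a-3p and miR-128-3p were -0.73, -1.02, 0.27 and 0.40. No marker was called for the difference of the age changes. No listed marker was at 0 in every library, and their part in the fall of miR-1a-3p was not tested.

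**Figure D4:**
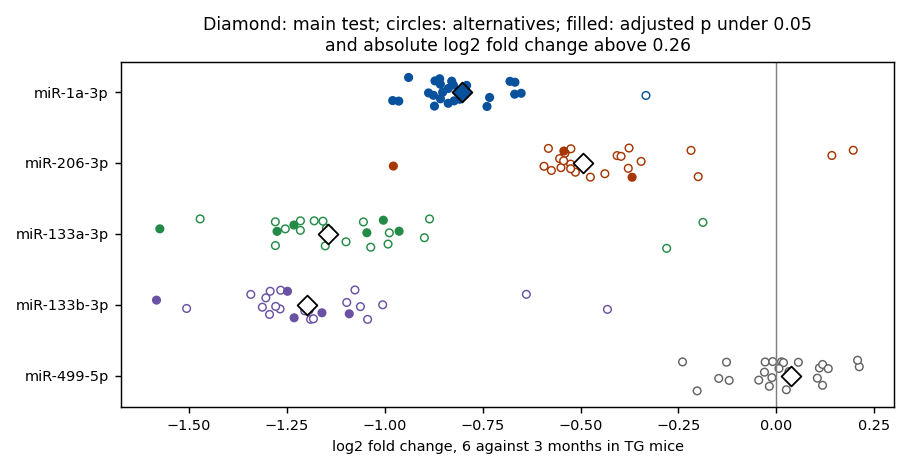
Log2 fold change between 6 and 3 months in TG mice under the main test (diamonds) and each alternative (circles), filled where called. miR-1a-3p is called in all but 1 alternative, without TG mice 1, 2 and 3 of 3 months (-0.33), while miR-499-5p scatters around 0.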

How the data were processed

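Small RNA libraries of hippocampal CA1 were analysed as 1 library per mouse. The deposited counts are reads per pair of mature miRNA and precursor, made by the authors with cutadapt, mapper and quantifier of mirdeep2, bowtie, mm10 and miRBase; the submitters' processing notes name bcl2fastq 2.20.2, FastQC 0.11.5 and cutadapt 2.8. The deposited normalized values are RPM values (reads per 1000000 of the library total), spike-in oligos included, and were used only with limma. Groups came from sample titles.

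The 2128 pairs were reduced to 1978 mature miRNAs, keeping for each miRNA its most counted precursor. Counts were tested with edgeR 4.0.16 (R 4.3.3; filterByExpr with a minimum count of 10, TMM, quasi-likelihood, Benjamini-Hochberg over all miRNAs tested), with limma 3.58.1 (pseudocounts 1 and 0.1) and DESeq2 1.42.0 as alternatives, the latter also with 1 or 2 factors of unwanted variation from residuals. The test was checked on simulated data. These were drawn for each miRNA independently, so the check does not cover the component that the miRNAs shared with the spike-in axis. The spike-in axis used 43 of 52 spike-in oligos and log2 shares; it, the splits and the omissions based on it, library totals without TMM and the omission of 3-month TG mice were added after the data were examined. Correlations used scipy 1.17.1 and 100000 permutations within groups. The 7 miRNAs and all lists were chosen with earlier results of these data known. The miRNAs named are these 7, their opposite arms, the 3 most like miR-1a-3p and members of the lists. Of the heart stress list only called members are named. Depth ranged from 2656368 to 36547011 counts per library. No libraries of a group were copies of each other. The mRNA sequencing was not analysed here.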

Additional observations from a re-analysis of the deposited data

Results flagged for a closer look

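In 10 checks, the 5 detected miRNAs in the groups of 5 and 9 mice, a mouse far from the others was looked for, and chance flags about 1 in 20 such groups. Wild-type mouse 2 of 3 months stood apart with 25.5 CPM of miR-133a-3p, while the other 4 lay between 5.88 and 10.9 CPM. The same mouse stood apart with 4.22 CPM of miR-133b-3p, the other 4 lying between 0.72 and 1.73 CPM. The flags are not independent, since miR-133a-3p and miR-133b-3p are nearly identical and may share reads. It had the highest position on the spike-in axis among the 5, 6.62, and its genotype field reads TG. The part of either in these levels was not tested.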

How the results depend on the processing

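The 25 log2FC of the 5 tested miRNAs were recomputed under alternatives that gave 513 values: 435 kept direction and side of the threshold, 21 newly passed it, 1 no longer did and 56 changed sign, none of the last past the threshold in the main test. For each of these the cause was not tested. miR-1a-3p stayed called in TG mice between ages (log2FC -0.98 to -0.65) except without 3-month TG mice 1, 2 and 3 (-0.33).

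Between ages in TG mice, 2 of the 5 miRNAs were called with DESeq2 (144 of all 629 tested), 3 with 1 factor of unwanted variation (304 of 629) and 4 with 2 factors (317 of 629), 3 when replicate numbers formed a block (121 of 629), and 2, miR-1a-3p and miR-206-3p, with the spike-in axis as a covariate (234 of 629). The calls among all miRNAs rose as well under each of these. Without 3-month TG mice 1, 2 and 3 there were 2, miR-133a-3p at -1.57 and miR-133b-3p at -1.58 (315 of 662 in all). There were 2 in libraries below 0 on the spike-in axis, miR-1a-3p and miR-206-3p (43 of 575), and 3 above it, miR-1a-3p, miR-133a-3p and miR-133b-3p (292 of 693). Leaving out single 3-month TG mice gave 1 to 2. With the spike-in axis as covariate the log2FC of miR-133a-3p was -0.28 and that of miR-133b-3p -0.43, neither called. Between ages in wild-type controls the replicate block called 2, miR-133a-3p (-1.83) and miR-133b-3p (-1.499), and leaving out single 3-month controls gave 0. That block kept mice 1 to 5 of each age, which lay mostly on opposite sides of the spike-in axis. DESeq2 with 2 factors called 2 between TG and wild type at 3 months, miR-1a-3p (0.77) and miR-206-3p (0.49), among 51 of 695 in all. With 1 or 2 factors it called 1 at 6 months, miR-133a-3p (-0.57), among 4 and 8 of 612.

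Same-numbered mice deviated together in some pairs and not in others. Of TG mice 7 of 9 pairs correlated above 0.1 (mean r = 0.25), and of wild-type controls 2 of 5 (mean r = 0.045). At 3 months 2 of 5 pairs did (mean r = 0.0043), and at 6 months 9 of 11 (mean r = 0.34). TG mice 1, 2, 3 and 8 of 3 months lay below 0 on the spike-in axis. So did TG mice 1, 2, 3, 4, 8 and 9 of 6 months. Wild-type mouse 1 of 3 months and mice 1, 2, 3, 4, 5, 8 and 9 of 6 months did too. No label says what the numbers stand for, and whether they mark pairs was not tested. With the replicate block, log2FC changed sign for miR-499-5p between ages in TG mice (-0.13) and wild-type controls (-0.44) and in the difference between them (0.25), for miR-1a-3p between ages in wild-type controls (0.35), for miR-133a-3p (-0.50) and miR-133b-3p (-0.28) between genotypes at 3 months, for miR-133a-3p in the difference (0.043), and for miR-206-3p between genotypes at 6 months (-0.10). The block kept only mice whose number occurred in both groups compared, or in more than 1 group for the difference. Between ages in wild-type controls it kept mice 1 to 5 of each age, which lay mostly on opposite sides of the spike-in axis. There 245 of 597 miRNAs were called.

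Scaling by library totals moved the median log2FC of all miRNAs from -0.09 to -0.29 between ages in TG mice, with 32 called higher and 76 lower, and from -0.02 to -0.19 in wild-type controls. There miR-499-5p was at -0.24 in TG mice and -0.011 in wild-type controls, and miR-206-3p at -0.061 between ages in wild-type controls and -0.075 between genotypes at 6 months. With RLE size factors miR-499-5p was at -0.018 between ages in TG mice, and miR-206-3p at -0.00018 between genotypes at 6 months. The other sign changes of miR-499-5p between ages in TG mice were -0.030 without a low-count filter, -0.011 with DESeq2, -0.12 and -0.15 with limma, -0.20 without 3-month TG mice 1, 2 and 3, and -0.045, the lowest when single 3-month TG mice were left out (highest 0.13). limma with pseudocounts 1 and 0.1 put miR-206-3p at -0.055 and -0.080 and miR-499-5p at -0.042 and -0.062 between ages in wild-type controls, miR-133a-3p at -0.015 and -0.12 between genotypes at 3 months, and miR-206-3p at -0.020 and -0.014 between genotypes at 6 months. miR-206-3p at 6 months was also at -0.0064 with DESeq2, -0.0048 with 2 factors, -0.020 with the spike-in covariate, -0.014 without libraries under 4000000 miRNA counts and -0.24 in libraries below 0, and without those shallow libraries miR-1a-3p was at 0.022.

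Between ages in wild-type controls, miR-133a-3p and miR-133b-3p were at 0.23 and 0.33 without 3-month mice 1 and 2 or with them counted as TG, at 0.37 and 0.50 without mouse 2 (lowest -0.32 and -0.27, without mouse 1), at 0.37 and 0.35 with the spike-in covariate and at 0.21 and 0.16 in libraries above 0. There miR-206-3p was at -0.018 with the covariate, at -0.11 in libraries above 0 and between -0.00053 (without mouse 5) and 0.18 with single mice left out, and miR-1a-3p between -0.26 and 0.33 (without mouse 3). Without 3-month TG mice 1, 2 and 3, miR-206-3p was at 0.20 between ages in TG mice, -0.027 between genotypes at 3 months and 0.058 in the difference, and miR-499-5p at 0.12 between genotypes at 3 months. In libraries above 0, miR-206-3p was at 0.14 between ages in TG mice and miR-499-5p at 0.016 between genotypes at 3 months. Levels of miR-208a-3p and miR-208b-3p under 3 counts per library (0.0956 to 2.32 CPM) were not detectable at this depth.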
